A study of Mus musculus with 6 samples.

Results

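Fatty acid desaturases put double bonds into acyl chains, and elongases lengthen the chains. Expression of 10 of these genes was examined in kidneys of 24-month-old mice: the desaturase genes Fads1, Fads2, Fads3, Scd1 and Scd2, and the elongase genes Elovl1, Elovl2, Elovl5, Elovl6 and Elovl7. They were chosen by name, and all 10 were among the 13696 genes of the deposited tables. The fat-1 group (genotype label fat-1 knockin) had 3 samples, and the wild-type (WT) group had 3. The labels used here give neither the promoter and site of the inserted gene nor sex, feeding or strain. They do not say whether the 6 samples are 6 animals, and a p-value here reflects only how far these samples spread. Reads of the inserted nematode gene were not analysed here, and genotypes are as labelled. Values are FPKM (fragments counted per length of transcript and per library size), which can be compared between genes because they are per length.

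Mammals cannot turn omega-6 into omega-3 fatty acids, and fat-1 is a desaturase gene of the nematode Caenorhabditis elegans that does so. In mammals, Fads2 begins the conversion of linoleic and alpha-linolenic acid, Elovl5 lengthens the product, and Fads1 makes arachidonic and eicosapentaenoic acid. Scd1 and Scd2 make monounsaturated from saturated fatty acids. Polyunsaturated fatty acids are known to lower the transcription of several of these enzymes through the transcription factor SREBP-1, and are ligands of the receptor PPAR alpha.

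All 5 desaturase genes had lower means in fat-1 than in WT kidneys, and the elongase genes were split, with 3 higher and 2 lower. Of all tested genes, 48.8% had a negative log2 difference. On the log2 scale the largest differences were those of the stearoyl-CoA desaturases, with means of 9.36 against 21.7 FPKM for Scd1 and 11.4 against 21.7 FPKM for Scd2. None of the 10 passed an adjusted p of 0.05 in limma, a threshold that 0.180% of the 11698 tested genes passed (21 genes, 14 higher and 7 lower in fat-1). At an unadjusted p under 0.05 limma gave 3 members, Scd2, Fads3 and Scd1, where 9.97% of all tested genes lay under that value. In Scd2 and Fads3 every fat-1 library was below every WT library, an arrangement that 6.86% of the tested genes showed. The median log2 difference was -0.44 over the desaturases and 0.08 over the elongases, beside 0.0059 over all tested genes. Among 19 alternative fits, the 5 desaturase differences kept their negative sign with other pseudocounts, other scalings and libraries left out. The alternatives of filter and variance estimation could not change these differences. Nor could the highest transcript in place of the sum, because each desaturase had 1 listed transcript. The sign of Elovl1 and Elovl5 changed with a library left out.

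**Figure D1:**
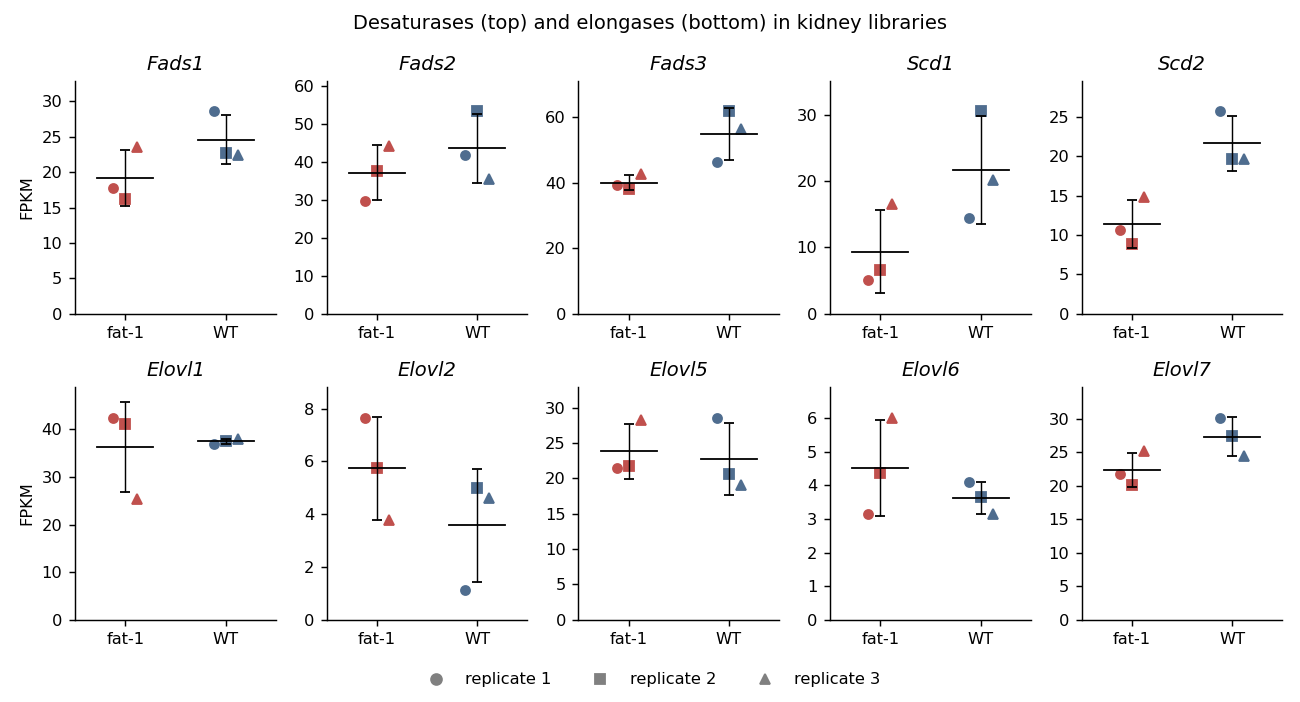
FPKM of each gene (vertical axis, from 0) in the 3 fat-1 and 3 WT libraries, with the group mean as a long line and the SD as bars, and symbols marking replicates. In Scd2 and Fads3 every fat-1 library lies below every WT library, and in the other 8 genes the groups overlap.

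The kidney identity of the libraries was plain from tubule markers: summed FPKM of 6 thick ascending limb genes, with Umod and Slc12a1 among them, lay between 813 and 1713 in fat-1 and between 1049 and 1354 in WT libraries. WT replicate 1 stood apart by its immune genes, since 6 macrophage markers summed to 784 FPKM there, against 93.2 to 184 FPKM in fat-1 and 87.5 and 110 FPKM in the other WT libraries. In fat-1 replicate 1, erythrocyte genes summed to 540 FPKM, against 15.0 and 27.3 FPKM in the other fat-1 libraries and 138 to 242 FPKM in WT. Sums for the S1 and S2 tubule segments, principal cells and fibroblasts overlapped between the groups. So did those for lymphocytes, only 2 of whose 6 genes were high enough to be tested. Of the adrenal cortex genes only 1 was measured, Star, at 0.332 to 0.507 FPKM in fat-1 and 0.210 to 0.497 FPKM in WT. It was too low to be tested. Summed FPKM per library ran from 387488 to 421497 in fat-1 and from 391237 to 431081 in WT. Fat-1 replicate 3 was the highest of its group in 8 of the 10 members, where it was the highest in 48.7% of all tested genes. In bulk tissue, fewer cells of a type and less RNA per cell cannot be told apart.

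The polyunsaturated fatty acid desaturases lie together on chromosome 19 (mm10). Fads3 (10041548 to 10059671, plus strand) is followed 4493 bases on by Fads2 (10064164 to 10101503, minus strand), and Fads1 (10182888 to 10196870, plus strand) begins 81385 bases beyond the end of Fads2. Fads2 and Fads1 are therefore transcribed away from each other. Each had 1 listed transcript. Of the Fads2 transcript, 0.161% of its stretches of 50 bases also occur in another gene, Fads3, and 0% of the Fads1 transcript does.

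Fads2, which begins the pathway, measured 29.7, 37.5 and 44.2 FPKM in fat-1 and 41.7, 53.3 and 35.6 FPKM in WT libraries. The groups overlapped widely. Means were 37.1 ± 7.21 FPKM in fat-1 and 43.5 ± 8.97 FPKM in WT (SD, n = 3 each), a log2 difference of -0.22 with a 95% interval from -0.70 to 0.25 (adjusted p = 0.836). With single libraries left out it lay between -0.35 (without WT replicate 3) and -0.07 (without WT replicate 2). Fads1, which makes arachidonic and eicosapentaenoic acid, measured 17.7, 16.2 and 23.6 FPKM in fat-1 and 28.6, 22.7 and 22.5 FPKM in WT libraries. Only fat-1 replicate 3 reached the WT values. Its log2 difference was -0.36, with an interval from -0.77 to 0.06 (adjusted p = 0.594).

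Fads3, which in mammals puts a double bond into the sphingoid base of ceramides, was the most abundant member in both groups by its mean. It measured 39.4, 38.2 and 42.6 FPKM in fat-1 and 46.3, 61.8 and 56.5 FPKM in WT libraries. The fat-1 libraries lay close together and all below WT. Means were 40.1 ± 2.25 FPKM in fat-1 and 54.9 ± 7.91 FPKM in WT (SD, n = 3 each), and the log2 difference was -0.44 ± 0.14 (SE; adjusted p = 0.322). Its interval ran from -0.76 to -0.11.

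The 300-base windows around the starts of Fads3 and Fads2 are shown because the groups overlapped in Fads2 and not in Fads3. Whether the log2 differences of these neighbours differ from each other was not tested. Their intervals overlapped, from -0.76 to -0.11 for Fads3 and from -0.70 to 0.25 for Fads2. Each window runs from 250 bases before the start to 50 bases into the transcript, 5′ to 3′, from RefSeq on GRCm38.p6, which is mm10. Capitals mark CCAAT, the box bound by the factor NF-Y, on either strand (ATTGG on the other).
Fads3, chr19:10041298-10041597, plus strand: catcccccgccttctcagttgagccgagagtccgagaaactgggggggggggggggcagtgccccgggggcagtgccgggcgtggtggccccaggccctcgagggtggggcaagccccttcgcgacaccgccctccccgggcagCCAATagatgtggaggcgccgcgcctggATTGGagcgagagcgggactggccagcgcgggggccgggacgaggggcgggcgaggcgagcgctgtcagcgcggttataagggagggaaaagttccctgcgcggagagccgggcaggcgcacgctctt
Fads2, chr19:10101454-10101753, minus strand: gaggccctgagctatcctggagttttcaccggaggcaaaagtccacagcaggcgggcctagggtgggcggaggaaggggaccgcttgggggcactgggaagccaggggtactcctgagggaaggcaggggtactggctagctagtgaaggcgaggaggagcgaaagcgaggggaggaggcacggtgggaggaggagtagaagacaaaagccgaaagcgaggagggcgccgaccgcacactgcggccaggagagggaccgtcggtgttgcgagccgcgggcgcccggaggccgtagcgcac

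The Fads3 window holds 2 CCAAT boxes and the Fads2 window 0, and 37.4% of the 32851 mouse windows of this length hold at least 1. Windows were at hand for 7 of the 10 members (Fads2, Fads3 and the 5 elongases). Of these, 3 (Fads3, Elovl1 and Elovl5) hold CCAAT and 5 hold the GC box GGGCGG, which 35.7% of all windows hold. The sterol response letters TCACNCCAC occur in 0 of the 7 members' windows and in 1.24% of all windows. The motif AGGTCA repeated with 1 base between the copies, the form bound by PPAR and RXR, occurs in 0 of the 7 and in 0.0396% of all windows. All motifs were searched on both strands. The sterol response letters and the AGGTCA repeat are so rare that 0 of 7 was the likely count in any case. These counts therefore cannot show whether the members have such sites. Fads1, Scd1 and Scd2 were not searched, and neither was sequence outside the windows.

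The elongase genes lie apart: Elovl1 at 118428093 to 118432953 on chromosome 4, Elovl2 at 41182381 to 41220405 and Elovl7 at 108214404 to 108285683 on chromosome 13, Elovl5 at 77917364 to 77984519 on chromosome 9 and Elovl6 at 129532355 to 129638495 on chromosome 3. Elovl2 is on the minus strand and the other four are on the plus strand. Among the elongases of polyunsaturated chains, Elovl5, which lengthens the products of Fads2, did not separate the groups. It measured 21.4, 21.8 and 28.3 FPKM in fat-1 and 28.6, 20.6 and 19.0 FPKM in WT libraries, a log2 difference of 0.08 with an interval from -0.37 to 0.52 (adjusted p = 0.964). The highest library of each group was nearly the same. Elovl2, which acts later, on the way to docosahexaenoic acid, was a low member. It measured 7.66, 5.75 and 3.79 FPKM in fat-1 and 1.11, 4.98 and 4.63 FPKM in WT libraries. WT replicate 1, the library with the high immune genes, was the lowest. The log2 difference was 0.66 with an interval from -0.40 to 1.72 (adjusted p = 0.747), and 0.17 without WT replicate 1.

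The stearoyl-CoA desaturases lie on chromosome 19 as well, Scd2 at 44293676 to 44306864 on the plus strand and Scd1 at 44394451 to 44407709 on the minus strand. Scd2, described mainly in the brain and in young animals, measured 10.6, 8.86 and 14.8 FPKM in fat-1 and 25.7, 19.7 and 19.6 FPKM in WT libraries. Every fat-1 library was below every WT library. Means were 11.4 ± 3.03 FPKM in fat-1 and 21.7 ± 3.48 FPKM in WT (SD, n = 3 each), a ratio of 0.527. The log2 difference was -0.89 ± 0.20 (SE), with an interval from -1.37 to -0.40 and an adjusted p of 0.171 in limma. With single libraries left out it lay between -1.07 and -0.73, with an adjusted p between 0.144 and 0.396.

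Scd1, the main stearoyl-CoA desaturase of liver and fat tissue, had a wide spread within both groups. It measured 5.0, 6.56 and 16.5 FPKM in fat-1 and 14.4, 30.5 and 20.1 FPKM in WT libraries. Fat-1 replicate 3 lay above WT replicate 1, so the groups overlapped by that pair. The highest library was 3.31 times the lowest in fat-1 and 2.11 times in WT. Means were 9.36 ± 6.26 FPKM in fat-1 and 21.7 ± 8.16 FPKM in WT (SD, n = 3 each), a log2 difference of -1.23 with an interval from -2.29 to -0.17 (adjusted p = 0.421). With single libraries left out the log2 difference lay between -1.69 and -0.92, with an adjusted p between 0.191 and 0.735 in limma. It was -1.94 (adjusted p = 0.0962) when the pair that made the groups overlap was left out, a choice that itself widens the difference. Stretches of 50 bases shared with other Scd genes made up 4.66% of the Scd1 and 4.01% of the Scd2 transcript, so a small part of their reads may be split between copies.

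Summed marker genes of some kidney cells were set beside these differences. Summed FPKM of 6 markers of the S3 segment of the proximal tubule were 294, 431 and 577 in fat-1 and 439, 898 and 806 in WT libraries. The 6 libraries fell in the same order by this sum as by Scd1, a match noticed among 14 marker lists and 10 members after the values were seen. The sums of 6 intercalated cell markers lay between 78.5 and 89.4 FPKM in fat-1 and between 115 and 118 FPKM in WT libraries, and those of 6 distal convoluted tubule markers were at most 316 FPKM in fat-1 and at least 362 FPKM in WT. Both separated the groups in the direction of Scd2 and Fads3. Within fat-1, replicates 1 to 3 had intercalated sums of 78.6, 78.5 and 89.4 FPKM, the order of Scd2 (10.6, 8.86 and 14.8 FPKM). Their distal convoluted tubule sums, 253, 316 and 209 FPKM, ran in the reverse order. Within WT, the intercalated sums followed the order of Fads3 and the distal convoluted tubule sums the reverse. Of the single genes, 1 of the 6 S3 markers, 1 of the 6 intercalated markers and 0 of the 6 distal convoluted tubule markers had a positive difference. In limma 0 genes of these lists were called, and the intercalated list shares Slc4a1 with the erythrocyte list. In the other direction, 6 endothelial markers summed to between 138 and 191 FPKM in fat-1 and to between 63.5 and 75.9 FPKM in WT (1 of the 6, Plvap, passed an adjusted p of 0.05 in limma), and 6 podocyte markers to between 94.4 and 110 FPKM in fat-1 and to between 62.1 and 74.1 FPKM in WT. Of the podocyte markers 5 differences were positive and 1 negative, and 0 were called in limma. Among single tested genes, 6.86% lay lower in every fat-1 library than in every WT library and 8.33% higher. No such share was computed for sums of 6 genes. The part of these cells in the desaturase values was not tested. Fat tissue left little signal: the 2 adipocyte markers measured, Adipoq and Cfd, summed to between 0.293 and 5.91 FPKM in fat-1 and to between 0 and 5.64 FPKM in WT, and Plin1, Cidec, Lep and Retn were not analysed here.

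Elovl6, which lengthens palmitic to stearic acid and so feeds the stearoyl-CoA desaturases, was low in all libraries. Its 3 listed transcripts summed to 3.16, 4.38 and 6.02 FPKM in fat-1 and to 4.11, 3.64 and 3.16 FPKM in WT libraries. The lowest values of the groups were alike, and fat-1 replicate 3 was the highest. The log2 difference was 0.22, with an interval from -0.30 to 0.75 (adjusted p = 0.856). It was 0.03 without fat-1 replicate 3 and 0.41 without fat-1 replicate 1. Elovl6-201 made up 76.2% to 97.9% of the sum in fat-1 and 91.6% to 98.2% in WT, and the other two transcripts stayed at or below 0.533 FPKM. Of the Elovl6-201 stretches of 50 bases, 4.59% also occur in other genes.

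Elovl7 and Elovl1 act mainly on saturated and monounsaturated chains, and the products of Elovl1 enter sphingolipids. Elovl7 measured 21.8, 20.1 and 25.2 FPKM in fat-1 and 30.2, 27.5 and 24.4 FPKM in WT libraries. Only fat-1 replicate 3 and WT replicate 3 crossed. The log2 difference was -0.28 with an interval from -0.60 to 0.04 (adjusted p = 0.586). Elovl1, summed over its 4 listed transcripts, measured 42.5, 41.1 and 25.3 FPKM in fat-1 and 36.9, 37.6 and 38.0 FPKM in WT libraries. The WT libraries lay within a factor of 1.03 of each other, and fat-1 replicate 3 was far below the other two of its group. The log2 difference of the sum was -0.08 (adjusted p = 0.964), and 0.15 without fat-1 replicate 3.

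**Figure D2:**
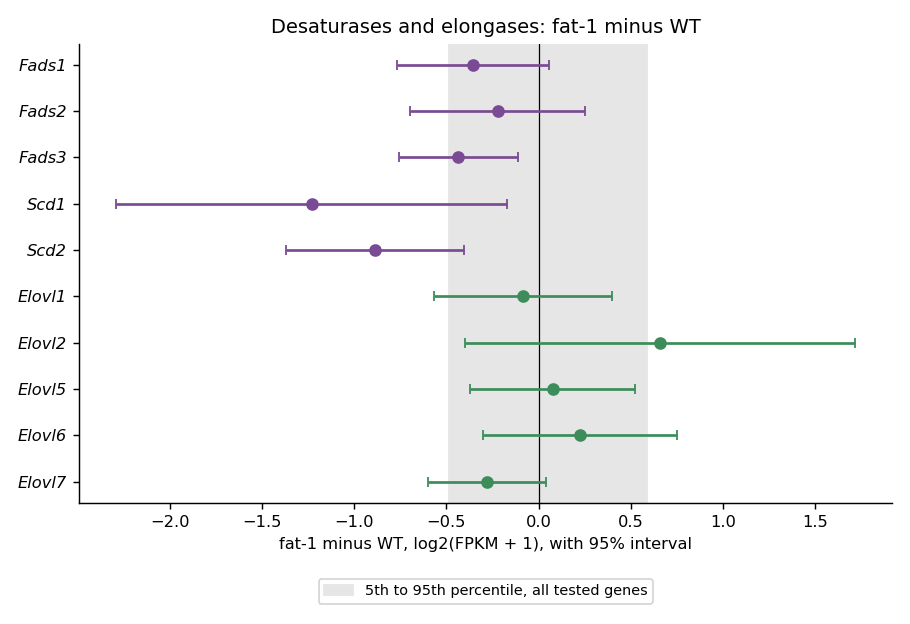
Log2(FPKM + 1) difference of fat-1 and WT means, positive where fat-1 is higher (horizontal axis), for each gene, with the 95% interval as bars, desaturases above elongases. The grey band runs from the 5th to the 95th percentile of all tested genes (-0.49 to 0.59). Scd1 and Scd2 lie left of the band and Elovl2 right of it, and the intervals of Scd1, Scd2 and Fads3 do not reach 0.

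Below the Elovl1 sum, single transcripts ran in opposite directions. Elovl1-202 measured 9.85, 15.9 and 12.0 FPKM in fat-1 and 7.30, 7.80 and 3.53 FPKM in WT libraries. Every fat-1 library was above every WT library, and means were 12.6 ± 3.06 FPKM in fat-1 and 6.21 ± 2.33 FPKM in WT (SD, n = 3 each). Elovl1-201 was lower in every fat-1 library, at 4.50, 4.01 and 4.51 FPKM, than in every WT library, at 6.04, 5.99 and 6.22 FPKM. Groups that do not overlap, in either direction, were found for 14.0% of the 17119 tested transcripts.

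Elovl1-202 took 23.2%, 38.7% and 47.6% of the Elovl1 sum in fat-1 and 19.8%, 20.7% and 9.30% in WT libraries. All fat-1 shares were above all WT shares, by 19.9 percentage points in the mean (two-sided exact permutation test, p = 0.1, the smallest that 3 against 3 allows). Leaving out single libraries gave 14.3 to 26.5 points. The shares of the other listed Elovl1 and Elovl6 transcripts had p from 0.3 to 0.6 in the same permutation test. How often shares separate the groups among all genes was not computed. Elovl1-203, the largest in WT, took 52.6%, 40.2% and 19.4% in fat-1 and 50.7%, 46.7% and 56.6% in WT libraries.

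In the fit over all tested transcripts, Elovl1-202 differed by a log2 value of 0.95 ± 0.31 (SE; adjusted p = 0.50) and Elovl1-201 by -0.41 ± 0.14 (adjusted p = 0.534). In limma 0 of the 13 members' transcripts tested were called at an adjusted p of 0.05, where 0.0584% of all tested transcripts were. At an unadjusted p under 0.05 limma gave 5 of the 13 (Elovl1-201, Elovl1-202, Fads3-201, Scd1-201 and Scd2-201), where 8.13% of all tested transcripts lay under that value. Fads3-201, Scd1-201 and Scd2-201 are the only listed transcripts of their genes, so they repeat the gene values and add nothing to them. Of the stretches of 50 bases in Elovl1-202, 11.9% occur in no other listed Elovl1 transcript, so its values rest on how reads over the shared exons were divided.

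**Figure D3:**
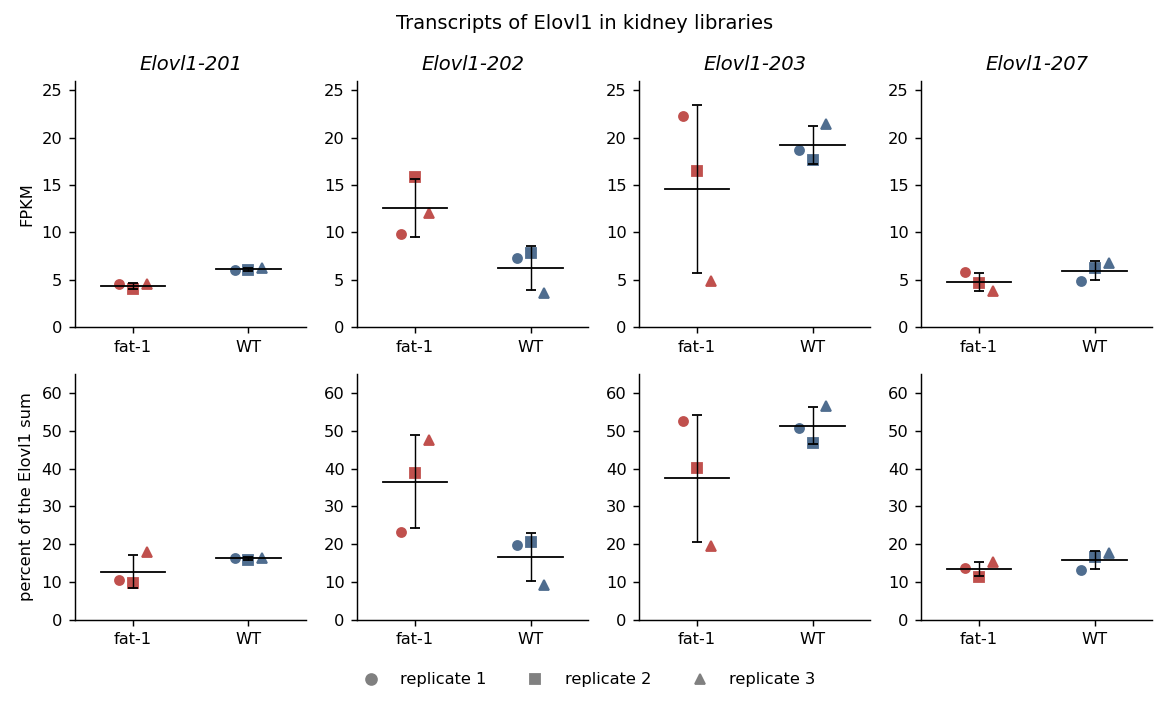
FPKM (top row) and share of the Elovl1 sum in percent (bottom row) of the 4 listed Elovl1 transcripts in the 3 fat-1 and 3 WT libraries, with means as long lines and SD as bars. Elovl1-202 is higher in every fat-1 library in both rows, and Elovl1-203 spreads widely within fat-1, from 4.89 to 22.3 FPKM.

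The Elovl1 transcripts begin at 2 places on chromosome 4 (plus strand). Elovl1-201, Elovl1-207 and Elovl1-203 start within 32 bases of each other from 118428093 on, and Elovl1-202 starts 1608 bases downstream, at 118429701. RefSeq has a start at each of these positions, and both windows are shown because the transcripts from them differed in direction. Capitals again mark CCAAT on either strand.
Elovl1 upstream start, chr4:118427843-118428142, plus strand: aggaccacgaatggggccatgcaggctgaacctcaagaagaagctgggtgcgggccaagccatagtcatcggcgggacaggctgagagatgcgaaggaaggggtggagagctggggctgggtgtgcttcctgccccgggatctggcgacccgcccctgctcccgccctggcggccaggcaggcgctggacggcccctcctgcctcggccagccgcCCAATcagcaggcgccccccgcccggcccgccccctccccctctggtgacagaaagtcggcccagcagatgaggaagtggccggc
Elovl1-202 start, chr4:118429451-118429750, plus strand: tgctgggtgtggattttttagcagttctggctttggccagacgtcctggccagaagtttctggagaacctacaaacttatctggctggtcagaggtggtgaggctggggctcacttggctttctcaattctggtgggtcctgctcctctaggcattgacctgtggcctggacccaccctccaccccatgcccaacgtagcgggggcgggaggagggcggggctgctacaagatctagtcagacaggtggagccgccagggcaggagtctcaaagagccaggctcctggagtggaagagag

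The upstream window has 70.7% G and C and 20 CpG pairs, and the downstream window has 59.0% and 6, beside medians of 52.7% and 7 over all mouse windows. The upstream window holds 1 CCAAT box and 5 GC boxes, and the downstream window 0 and 2. The 3 upstream-start transcripts summed to 32.6, 25.2 and 13.2 FPKM in fat-1 and to 29.6, 29.8 and 34.5 FPKM in WT libraries. Fat-1 replicate 1 lay within the WT range and the other two fat-1 libraries below it (exact permutation test on log2 values, two-sided, p = 0.300).

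By mean FPKM the order of the genes was similar in both groups, with Fads3, Fads2 and Elovl1 at the top and Elovl6 and Elovl2 at the bottom. In fat-1 the only neighbours in this order whose libraries did not overlap were Fads1 (19.2 FPKM) and Scd2 (11.4 FPKM). In WT these were Elovl1 (37.5 FPKM) and Elovl7 (27.3 FPKM), and Scd2 (21.7 FPKM) and Elovl6 (3.64 FPKM). The 2 Scd genes thus stood with Fads1 and Elovl5 in WT, and below them in fat-1 by their means.

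Partner enzymes of the same reactions were examined by list. Elongation needs a reductase, a dehydratase and a second reductase beside the elongase: in limma 0 of 5 tested genes of these were called and 0 had an unadjusted p under 0.05 (median log2 difference 0.03). Tecr, the last reductase, measured 89.8 ± 7.17 FPKM in fat-1 and 88.5 ± 8.16 FPKM in WT (SD, n = 3 each), and the dehydratase gene Hacd3 31.2 ± 2.82 FPKM in fat-1 and 30.5 ± 2.30 FPKM in WT. Hacd1, also a dehydratase, differed by 0.18 ± 0.14 (SE). The first reductase, Hsd17b12, differed by 0.60 ± 0.53 (SE), with 1 WT library far below the others. Of the cytochrome b5 genes and their reductases, which pass electrons to desaturases, 0 of 5 were called and 0 had an unadjusted p under 0.05 in limma (median -0.12). That median was 0.24 without fat-1 replicate 2 and 0.04 when at least 1 FPKM was asked in all 6 libraries, so its sign was not stable. Cyb5b lay lower in every fat-1 library (85.5 to 95.9 FPKM) than in every WT library (98.9 to 121 FPKM), and Cyb5r3 and Cyb5r4 higher (for Cyb5r3, 72.5 to 78.0 FPKM in fat-1 and 61.9 to 68.4 FPKM in WT). Of all tested genes, 6.86% lay lower in this way and 8.33% higher. Cyb5r4 differed by 0.21 ± 0.13 and Cyb5a by -0.13 ± 0.15 (SE) on the log2 scale.

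In other desaturase and elongase genes, 0 of 3 tested were called in limma and 0 had an unadjusted p under 0.05. All 3 differences were negative (median -0.32), where 48.8% of all tested genes were. They were Fads6 at -0.37, and the ceramide desaturase genes Degs2 at -0.32 and Degs1 at -0.26. Elovl3, Elovl4, Scd3 and Scd4 were not analysed here, and neither were Tecrl, Cyb5r2, Acsl6, Slc27a5 and Abcd2 of the other lists. Hacd4 and Pparg were below the filter on low values. The list of de novo fatty acid synthesis had a median of 0.02 (6 positive and 5 negative differences), with 0 of 11 called and 0 at an unadjusted p under 0.05 in limma. It held Mcat, Oxsm and Mecr of mitochondrial synthesis beside genes that supply palmitic acid. Among the latter, Fasn differed by -0.13, Acaca by -0.17 and Acly by 0.09. Thrsp, a regulator of de novo synthesis, differed by 0.46 ± 0.27 (SE) and Acss2, which makes acetyl-CoA, by 0.18 ± 0.16. Acacb, an acetyl-CoA carboxylase, differed by -0.20 ± 0.22 and Mecr by -0.10 ± 0.12.

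Genes on either side of the pathway were examined as well. Of 9 tested genes that activate fatty acids, carry them into cells or bind acyl-CoA (Dbi and Acbd5), 0 were called (median 0.14). Over the alternative fits that median ran from 0.0569 to 0.405. The 3 with an unadjusted p under 0.05 in limma, Acsl1, Slc27a1 and Acsl4, were higher in every fat-1 library than in every WT library, an arrangement that 8.33% of all tested genes showed. The acyl-CoA synthetase gene Acsl1 measured 102, 111 and 89.4 FPKM in fat-1 and 63.5, 50.2 and 38.5 FPKM in WT libraries. Its log2 difference was 1.00 ± 0.20 (SE; adjusted p = 0.123), that of Slc27a1 0.69 ± 0.16 and that of Acsl4, which prefers arachidonic acid, 0.52 ± 0.15. The peroxisomal enzymes that shorten very long chains, the last step towards docosahexaenoic acid, had 9 of 9 positive differences (median 0.56), with 0 called and 5 at an unadjusted p under 0.05 in limma, where 51.2% of all tested genes were positive and 9.97% lay under that p in either direction. Acaa1b, a thiolase, averaged 401 ± 67.4 FPKM in fat-1 and 157 ± 24.2 FPKM in WT (SD, n = 3 each; adjusted p = 0.0628). Hsd17b4, the multifunctional enzyme of this step, averaged 160 ± 14.5 FPKM in fat-1 and 87.0 ± 10.1 FPKM in WT (adjusted p = 0.0738). The transporter gene Abcd3 differed by 0.56 ± 0.15 (SE) on the log2 scale.

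Of 19 tested regulators of desaturase transcription 0 were called in limma, and 13 differences were negative (median -0.07), where 48.8% of all tested genes were negative. An unadjusted p under 0.05 in limma was found for 1 higher gene, Ppara, and 3 lower genes. Of all tested genes, 9.97% lay under that value in either direction. Srebf1, the gene of SREBP-1, measured 3.42, 3.15 and 4.04 FPKM in fat-1 and 6.29, 4.29 and 5.32 FPKM in WT libraries. All fat-1 values were below all WT values, an arrangement that 6.86% of all tested genes showed. The log2 difference of Srebf1 was -0.47 ± 0.17 (SE), with an adjusted p of 0.442 in limma. Insig1, which holds back SREBP processing and is itself an SREBP target, differed by -0.67 ± 0.16 (adjusted p = 0.192) and Ppard by -0.64 ± 0.21 (adjusted p = 0.360). Ppara, the gene of PPAR alpha, measured 9.01, 22.1 and 15.7 FPKM in fat-1 and 8.56, 5.46 and 3.27 FPKM in WT libraries (adjusted p = 0.314). Every fat-1 library was above every WT library, as in 8.33% of all tested genes. Of 19 tested genes of cholesterol synthesis and uptake 15 were negative (median -0.48) and 0 were called. In limma 1 higher and 10 lower genes had an unadjusted p under 0.05. Beside these counts stand the same shares of all tested genes, 48.8% negative and 9.97% under that p. Idi1 differed by -1.73 ± 0.33, Sqle by -0.84 ± 0.24 and Dhcr7 by -0.48 ± 0.13 (SE).

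**Figure D4:**
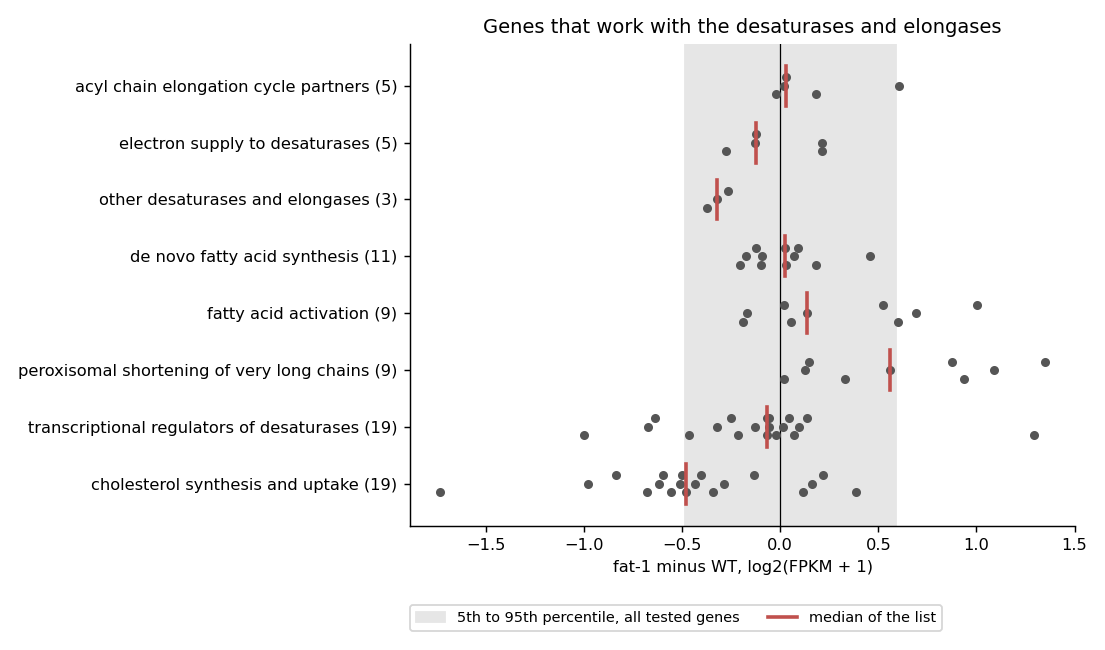
Log2(FPKM + 1) difference of fat-1 and WT means, positive where fat-1 is higher (horizontal axis), of each tested gene (points) in 8 lists, with the number of tested genes in brackets and the list's median as a red line. The grey band runs from the 5th to the 95th percentile of all tested genes (-0.49 to 0.59). The peroxisomal list has its median at 0.56 and the cholesterol list at -0.48, and 4 of the 5 elongation partners lie between -0.02 and 0.18.

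The genes whose profiles over the 6 libraries came nearest to those of 4 desaturases were listed as a description, by the root-mean-square difference of centred log2 values. For Scd1 these were Mep1b (0.208) and Mfsd2a (0.216), with a spread of Scd1 itself of 0.830 on that scale. For Scd2 they were Ube2c (0.0718) and Arhgap22 (0.119), with a spread of 0.501. For Fads1 they were Cacnb4 (0.0491) and Nipal2 (0.0602), and for Fads2 Arhgap26 (0.0600) and Tns1 (0.0808), with spreads of 0.260 and 0.256. Each was picked from 11688 genes over only 6 libraries.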

How the data were processed

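Total RNA of 6 kidney samples was sequenced, and each deposited table gives FPKM per transcript. Per the submitters' processing notes, the authors used featureCounts 1.5.0-p3, HISAT2 2.0.5 and DESeq2 1.20.0 on the mm10 build. Which tool computed FPKM is not given in the sources used, and neither counts nor depth were analysed here. The tables list only transcripts whose highest library has 0.5 FPKM or more.

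Transcript FPKM were summed per gene identifier, and gene symbols that had been turned into dates were restored. The fit used limma 3.58.1 (R 4.3.3) with a variance trend, robust estimation and no covariate, on log2(FPKM + 1) of genes that reached 1 FPKM in 3 or more libraries. Transcripts were fitted in the same way. The p-values were adjusted by the Benjamini-Hochberg method across the whole fit, and 0.05 was the threshold. Fold changes on this scale understate those of low genes. The members, the pathway and marker lists and the rule for naming genes (every member, and up to 4 members of each pathway list with the smallest p) were chosen with earlier results of these data known. Some genes that this rule names are not reported here.

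On data simulated for the gene fit (11698 genes, 200 changed in each of 3 runs), 57.7% of genes changed 2-fold and 88.3% of those changed 4-fold were recovered, and 4.78% of calls were false. Changed genes were drawn only from those with a mean log2(FPKM + 1) above 3, and the fold was added on that scale. The simulated noise was normal and independent between libraries. Elovl2 and Elovl6 lie below that level, so the recovery does not cover them. No change below 2-fold was simulated, so the recovery of smaller differences is unknown. Of the other members only Scd1, with a log2 difference of -1.23, differed by more than 2-fold on this scale. Alternatives covered pseudocount, filter, scaling, variance estimation, the gene sum and libraries left out. Promoter windows are from RefSeq (GRCm38.p6), and transcript lengths are from GENCODE M21. Python 3.11.15, pandas 2.3.3, scipy 1.17.1 and matplotlib 3.10.9 were used.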

Additional observations from a re-analysis of the deposited data

How the results depend on the processing

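The number of members called stayed at 0 under all 19 alternatives. The count of all tested genes called, 21, was 10 with median-of-ratios scaling, 11 with upper-quartile scaling, 45 (36 higher and 9 lower) when each library was scaled to the same sum, 32 when mitochondrially encoded genes were left out of that sum, and 34 with quantile normalization. It was 4 with no filter, 3 with no intensity trend, 3 with the highest transcript in place of the sum, and 0 with WT replicate 1 and fat-1 replicate 3 both left out (1461 at an unadjusted p under 0.05 in limma). Leaving out single libraries gave 0 to 26 genes. The 10 transcripts called became 2 when at least 1 FPKM was asked in all 6 libraries, and 0 to 7 with single libraries left out. None of the 5 scalings moved the median of all genes beyond 0.0238. The sign of Elovl1 turned with both of those libraries left out (0.14), and with single libraries left out it ran from -0.21 to 0.15. Elovl5 ran from -0.0486 to 0.25 and Elovl1-203 from -0.99 to 0.0006. The list medians of elongation partners and de novo synthesis, near 0, ran from -0.04 to 0.11 and from -0.18 to 0.07. The cause was not tested. The depth is unknown, so no counting error is given, and low members such as Elovl2 and Elovl6 are the least certain. No paired analysis was possible because the 2 groups share no replicate numbers in the labels.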

Other observations

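The ratio of Scd1 to Scd2 FPKM varied more within groups than between them, at 0.471, 0.741 and 1.12 in fat-1 and 0.562, 1.55 and 1.03 in WT libraries (exact permutation test on log2 ratios, two-sided, p = 0.5). The ratio of Fads1 to Fads2 was 0.594, 0.432 and 0.534 in fat-1 and 0.685, 0.427 and 0.634 in WT libraries (exact permutation p = 0.600).

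Hsd17b12, the reductase that follows the elongases, measured 63.4, 49.5 and 50.6 FPKM in fat-1 and 56.1, 56.9 and 13.4 FPKM in WT libraries, so that WT replicate 3 alone stood far below the other five. The 442 tested genes of chromosome 19, which carries all 5 desaturase genes, had a median log2 difference of -0.0033, and 50.2% were negative, beside 48.8% of all tested genes.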
